A study of Mus musculus with 5 samples.

Results

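Neutrophils were described here in peripheral blood mononuclear cells of C57BL/6N mice, as barcodes of single-cell RNA libraries chosen by their transcripts. A barcode was kept when it had at least 200 genes and under 10% of its unique molecular identifiers (UMIs, counted molecules) from mitochondrial genes. It counted as a neutrophil when S100a8 and S100a9 together had at least 20 UMIs, at least 2 of Csf3r, Retnlg, Hdc, Il1r2 and Cxcr2 were detected, and Cd79a, Cd3e and Ccr2 had none. The rule found 1619 neutrophils among 62028 kept barcodes in 5 libraries. The mice of the NO2-OA group (1 library) were fed a high-fat diet (HFD) for 15 weeks together with L-NAME, which blocks nitric oxide synthases, and received nitro-oleic acid (NO2-OA, an electrophilic nitro-fatty acid) during the last 4 of them. The HFD + L-NAME group (2 libraries) had the same 15-week regimen, used to model heart failure in which the ejection fraction is preserved, and the chow group (2 libraries) had regular chow. The labels do not say which libraries came from separate mice, so p-values measure the spread between these libraries, which may be technical.

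Neutrophils are short-lived granulocytes made in the bone marrow and are the first leukocytes to reach injured or infected tissue. Their granules form in an order: primary granules at the promyelocyte stage, secondary granules in myelocytes, and tertiary granules and secretory vesicles last, so that transcripts of secondary granule proteins mark young cells and are largely shut down in mature blood neutrophils. A density gradient sends most of them to the pellet, and those that remain with the mononuclear cells are called low-density neutrophils. The blood in this study was separated on Ficoll, with red-cell lysis and a freeze-thaw cycle before capture, steps that neutrophils survive poorly.

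The chow 2 library held 8 neutrophils and 47853 of their UMIs, so its values carry wide counting error. The other 4 libraries held 512 neutrophils with 3090441 UMIs in NO2-OA, 289 with 1514178 and 510 with 3627156 in HFD + L-NAME 1 and 2, and 300 with 1499245 in chow 1. The median neutrophil had 4952 UMIs in NO2-OA, 4718 and 6226 in HFD + L-NAME, and 4283 and 4978 in chow, below the other kept barcodes of its library in each case (5991 to 7490). The sets in which the submitters named their files go with the replicate number, and the NO2-OA library belongs with replicate 1. Differences within replicate 1 and within replicate 2 are therefore given where a result turns on them. Between 28 and 77 barcode sequences were shared by any 2 libraries, and 0 neutrophil barcodes were. In a sum over cells, fewer cells that express a gene and less RNA of it per cell cannot be told apart.

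The chosen barcodes had the transcripts of neutrophils. The values that chose them are given without a test. S100a8 and S100a9, which encode the subunits of calprotectin, together made up 14.6% of the UMIs of neutrophils in NO2-OA, 11.5% and 9.13% in HFD + L-NAME 1 and 2, and 4.52% and 4.49% in chow 1 and 2. B cells (at least 2 UMIs of Cd79a, 1 of Cd79b and none of Cd3e) also had to have under 20 UMIs of S100a8 and S100a9 together. Their share of both genes was at most 0.00264%, but that gate caps it, so it is no measure of background. The median neutrophil had 531 UMIs of both genes in NO2-OA, 471 and 448 in HFD + L-NAME, and 158 and 231.5 in chow, so few cells lay near the threshold: 37 had 20 to 29 UMIs, and 30 further barcodes that met the other conditions had 10 to 19. All 5 receptor and enzyme markers were detected in 1214 of the 1619 cells, and 2 of them in 6. Retnlg, a resistin-like secreted protein, had 11814 CPM (UMIs of the gene scaled to the same total of neutrophil UMIs in every library) in NO2-OA, 7167 and 5596 CPM in HFD + L-NAME 1 and 2, and 3927 and 3323 CPM in chow 1 and 2. Il1r2, the decoy receptor of interleukin-1, had 1551, 3084 and 3123, and 2316 and 2863 CPM in the same order. Of the values used by the rule, the S100 genes and Retnlg were lowest in both chow libraries, and Il1r2 was lowest in NO2-OA.

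Neutrophil genes that the rule did not use were high too, while non-classical monocyte markers were also above their level in B cells. The genes with the highest ratio to B cells included Il36g (an interleukin-1 family cytokine), Camp, Lcn2, Stfa2l1, Ngp, Acod1 (which makes itaconate), Mmp9 and Mmp8 (neutrophil proteases), and Slc7a11 (the cystine transporter). Of 20 further neutrophil markers 19 were in the files under the symbol used. The other, Il1f9, is an older symbol of Il36g, so its UMIs are not in the sums. Together the 19 had 17348 CPM in NO2-OA, 18000 and 16118 CPM in HFD + L-NAME, and 11818 and 12977 CPM in chow, against 109 to 412 CPM in B cells. The 8 basophil and mast cell markers summed to at most 20.9 CPM and the 8 eosinophil markers to at most 20.9 CPM, with Fcer1a, the basophil and mast cell IgE receptor, at 0 in every library. Elane, Mpo, Ctsg, Prtn3 and Ms4a3, made by promyelocytes, had at most 4.14 CPM outside chow 2, where 1 Mpo UMI made 20.9 CPM. The 8 non-classical monocyte markers summed to 508 CPM in NO2-OA, 950 and 943 CPM in HFD + L-NAME, and 968 and 1964 CPM in chow. They had 167 to 368 CPM in B cells and 322 to 672 CPM in the other kept barcodes, and their source in neutrophils was not tested. The 10 classical monocyte markers summed to 883 CPM in NO2-OA, 318 and 717 CPM in HFD + L-NAME, and 193 and 272 CPM in chow. They had 588 to 762 CPM in B cells and 548 to 2171 CPM in the other kept barcodes. The B-cell value is no background, since 90.3% to 96.1% of B cells had a UMI of this list. Ccr2, also on the list, is 0 in neutrophils by the rule. Chil3 is on this list and is also counted below as a secondary granule gene. Without neutrophils that had at least 10 UMIs of Camp, Ngp and Ltf together, the sum was 246 CPM in NO2-OA. It was then 175 and 530 CPM in HFD + L-NAME, and 171 and 272 CPM in chow.

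Neutrophils were a larger share of kept barcodes in both HFD + L-NAME libraries than in both chow libraries, a difference that 2 libraries against 2 cannot test. They were 3.53% (95% Clopper-Pearson interval 3.24 to 3.85) in NO2-OA, 2.43% (2.16 to 2.72) and 6.63% (6.09 to 7.21) in HFD + L-NAME 1 and 2, and 1.74% (1.55 to 1.94) and 0.0749% (0.0323 to 0.147) in chow 1 and 2. These intervals cover counting error only. HFD + L-NAME averaged 4.53% ± 2.98 and chow 0.907% ± 1.18 (SD, n = 2 each). The difference of 3.62 percentage points had p = 0.333 in a two-sided exact permutation test, the smallest this design allows. It was 1.52 points without HFD + L-NAME 2. When barcodes with a UMI of further B-cell, T-cell, monocyte or platelet genes were also left out, 291 neutrophils remained in NO2-OA, 48 and 123 in HFD + L-NAME and 21 and 2 in chow, and the difference was 0.93 points. Gradient, lysis and freezing can each set this share, and their part in it was not tested.

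**Figure D1:**
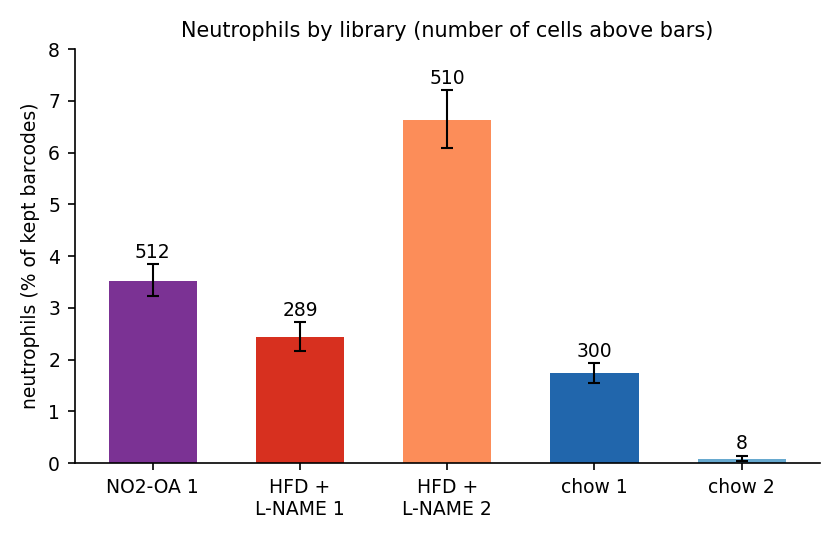
Neutrophils as a percentage of kept barcodes in each library, with exact 95% Clopper-Pearson intervals as error bars and the number of cells above each bar. HFD + L-NAME 2 is highest at 6.63% and chow 2 lowest at 0.0749% with 8 cells.

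Of 12 secondary granule genes 8 rose in HFD + L-NAME neutrophils against chow neutrophils. UMIs were summed over the neutrophils of each library and 8947 genes were fitted in one edgeR quasi-likelihood model. At a Benjamini-Hochberg adjusted p under 0.05, 47 genes rose (0.525% of those tested) and 63 fell (0.704%). The counts depended on the method: DESeq2 called 4 higher (0.0447%) and 3 lower (0.0335%), and edgeR called 0 in either direction, with 252 genes at an unadjusted p under 0.05, after every neutrophil was thinned to 1000 UMIs. Of the 12 secondary granule genes none fell, and all 12 had log2 fold changes above 0, with a median of 2.79 against 0.06 over all tested genes, 54.3% of which were above 0. The median of the list was 5.87 without chow 1 (0.96 over all tested genes), 1.72 with the stricter exclusion of barcodes given above, and 1.53 after thinning. The 8 were Camp, Ngp, Ltf, Lcn2, Chil3, Cd177, Lyz2 and Fcnb. Fcnb, a ficolin, had 35 UMIs in HFD + L-NAME 2 and 0 in HFD + L-NAME 1 and both chow libraries, at least 3.51-fold higher over the group when chow is set to 3 counts. With Fcnb at that bound the median of the list was 2.54.

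Camp, which encodes the precursor of the antimicrobial peptide cathelicidin, had 5601 CPM in NO2-OA, 1065 and 1858 CPM in HFD + L-NAME 1 and 2, and 221 and 0 CPM in chow 1 and 2. Fold changes are from the fit, which rescales each library by TMM factors, whereas CPM are scaled to the raw total, so a fold change can differ from the ratio of the CPM in size and, near 0, in sign. The groups did not overlap, and Camp rose with a log2 fold change of 3.55 ± 0.49 (SE, n = 2 and 2; edgeR adjusted p = 2.32e-09). Ngp, neutrophilic granule protein, had 6656 CPM in NO2-OA, 999 and 1943 CPM in HFD + L-NAME, and 283 and 0 CPM in chow. It rose by 3.25 ± 0.50 (adjusted p = 4.9e-07), and both genes stayed past the threshold in edgeR whichever library was left out. DESeq2 did not call either (adjusted p = 1 for both), whereas it called Ltf, Lcn2, Chil3 and Wfdc21. Ltf, the iron-binding lactotransferrin, had 2200 CPM in NO2-OA, 277 and 688 CPM in HFD + L-NAME, and 91.4 and 20.9 CPM in chow. Lcn2, the siderophore-binding lipocalin, had 4245 CPM in NO2-OA, 1979 and 1530 CPM in HFD + L-NAME, and 342 and 439 CPM in chow. Ltf rose by 2.96 ± 0.50 (adjusted p = 3.05e-06) and Lcn2 by 2.67 ± 0.47 (adjusted p = 8.44e-06). The order of the libraries was NO2-OA, then both HFD + L-NAME, then both chow for each of these 4 genes. Within replicate 1 the log2 differences between HFD + L-NAME and chow were 2.63 for Camp, 2.17 for Ngp, 1.95 for Ltf and 2.89 for Lcn2, and within replicate 2 that of Lcn2 was 2.39.

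The windows upstream of these 4 genes are shown because the genes rose together, as the 250 bases before each annotated start (RefSeq, GRCm38.p6, which is not the mm39 build of the files). The capitals mark TTGCNNAA on either strand, a form of the sequence that C/EBP factors bind, where N is any base. This 8-letter pattern was in the windows of 3 of 5 granule genes looked up and in 9.56% of all 32851 windows of the same length. A match is a description of the letters only.
Camp (ENSMUSG00000038357, chr9:109849457-109849706, minus strand): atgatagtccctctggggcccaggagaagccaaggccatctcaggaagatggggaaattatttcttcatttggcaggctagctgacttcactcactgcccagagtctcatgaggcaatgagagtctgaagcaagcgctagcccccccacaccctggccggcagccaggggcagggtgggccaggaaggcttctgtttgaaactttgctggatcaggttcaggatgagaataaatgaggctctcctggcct
Ngp (ENSMUSG00000032484, chr9:110419558-110419807, plus strand): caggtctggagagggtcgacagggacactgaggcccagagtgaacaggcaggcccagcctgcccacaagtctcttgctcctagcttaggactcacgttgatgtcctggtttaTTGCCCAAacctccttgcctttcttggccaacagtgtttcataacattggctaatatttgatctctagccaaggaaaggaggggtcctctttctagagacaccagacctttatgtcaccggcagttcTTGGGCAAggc
Ltf (ENSMUSG00000032496, chr9:111019042-111019291, plus strand): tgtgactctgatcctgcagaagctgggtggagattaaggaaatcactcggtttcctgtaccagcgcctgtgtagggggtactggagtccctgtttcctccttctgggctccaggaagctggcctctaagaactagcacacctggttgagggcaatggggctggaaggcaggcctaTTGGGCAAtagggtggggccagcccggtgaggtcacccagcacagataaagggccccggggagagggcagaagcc
Lcn2 (ENSMUSG00000026822, chr2:32387740-32387989, minus strand): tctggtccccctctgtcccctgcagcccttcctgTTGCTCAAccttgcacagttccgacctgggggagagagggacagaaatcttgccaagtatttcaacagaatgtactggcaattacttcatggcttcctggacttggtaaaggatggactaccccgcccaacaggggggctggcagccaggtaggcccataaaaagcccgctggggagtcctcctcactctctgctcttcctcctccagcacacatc
Ngp had 2 matches, Ltf and Lcn2 1 each, and Camp none. Chil3, whose window is not shown, also had none. Cebpe, the factor of this family known for secondary granule genes in mice, had 25.6 CPM in NO2-OA, 9.25 and 20.1 CPM in HFD + L-NAME, and 8.67 and 0 CPM in chow, with a log2 fold change of 1.16 ± 0.70 (adjusted p = 0.678).

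The other genes that rose included further products of the neutrophil lineage. Chil3, a chitinase-like protein, had 534 CPM in NO2-OA, 97.1 and 180 CPM in HFD + L-NAME, and 16 and 0 CPM in chow (log2 3.49 ± 0.56, adjusted p = 4.9e-07). Wfdc21, a small protein with a whey acidic protein domain, had 2965 CPM in NO2-OA, 1650 and 1093 CPM in HFD + L-NAME, and 390 and 230 CPM in chow (2.47 ± 0.47, adjusted p = 4.9e-05). Lrg1, a secreted leucine-rich glycoprotein, had 549 CPM in NO2-OA, 486 and 207 CPM in HFD + L-NAME, and 71.4 and 83.6 CPM in chow (2.62 ± 0.50, adjusted p = 5.37e-05). Ifitm1, an interferon-inducible membrane protein, had 1608 CPM in NO2-OA, 1782 and 728 CPM in HFD + L-NAME, and 370 and 209 CPM in chow (2.44 ± 0.46, adjusted p = 5.76e-05). Ly6g, the surface antigen that defines mouse neutrophils, rose by 1.99 ± 0.48 (adjusted p = 0.00673), and Cd177, an adhesion partner of PECAM1, by 2.42 ± 0.51 (adjusted p = 0.000547). Of 3 tested genes on the primary granule list 1 rose, Serpinb1a, an inhibitor of granule proteases (4.02 ± 0.75, adjusted p = 3.91e-05, on 4 UMIs in chow). The proteases and peroxidase of that list, Elane, Ctsg, Prtn3 and Mpo, had few UMIs, as given above. G0s2, an inhibitor of lipolysis, Anxa1, the pro-resolving annexin, Mt1, a metallothionein, and Trf, transferrin, also rose. So did Ly6c2, a classical monocyte marker (1.65 ± 0.46, adjusted p = 0.0344). Of 8 tested classical monocyte markers 2 rose, Ly6c2 and Chil3, and 4 were above 0. Counts depended on single libraries: the number that rose was 19 without chow 1, 23 without chow 2, and 11 without HFD + L-NAME 1 or without HFD + L-NAME 2. Chil3 and Ltf lost their calls without chow 1 or HFD + L-NAME 2, and Lcn2 and Wfdc21 without HFD + L-NAME 1, while their log2 fold changes stayed at or above 2.07. Lrg1, Ifitm1, Ly6g, Cd177, Serpinb1a, G0s2, Anxa1, Mt1 and Trf each lost their call in at least 3 of the 4 fits that left out 1 HFD + L-NAME or chow library, Trf with 1.75 without HFD + L-NAME 2.

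**Figure D2:**
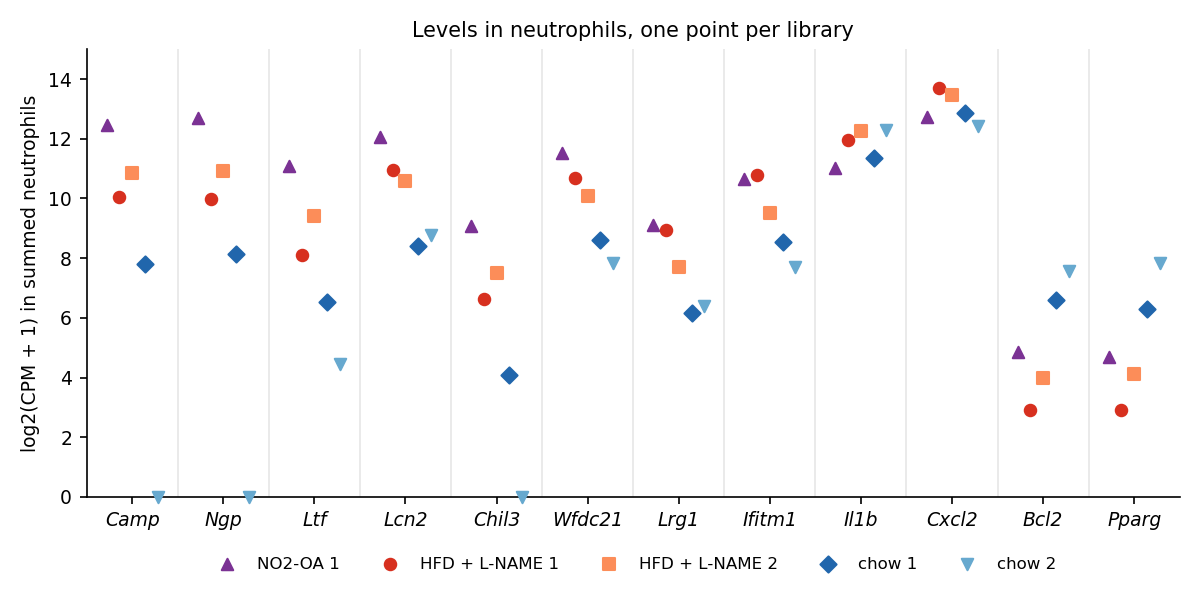
Level of 12 genes as log2(CPM + 1) of the summed neutrophils, 1 point for each library. Camp, Ngp, Ltf, Lcn2, Chil3 and Wfdc21 are highest in NO2-OA and lowest in chow, while Bcl2 and Pparg are highest in chow.

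Most Camp, Ngp and Ltf came from few cells. Neutrophils with at least 10 UMIs of these 3 genes together, a group defined after their values were seen and therefore not tested, are called granule-rich here. They were 98 of 512 neutrophils (19.1%, 15.8 to 22.8) in NO2-OA, 13 of 289 (4.5%, 2.42 to 7.57) and 20 of 510 (3.92%, 2.41 to 5.99) in HFD + L-NAME 1 and 2, 7 of 300 (2.33%, 0.943 to 4.75) in chow 1 and 0 of 8 (0 to 36.9) in chow 2. No B cell reached 10 such UMIs, but the B-cell gate left out barcodes with 20 or more UMIs of S100a8 and S100a9. The median granule-rich cell had from 1247 to 4167.5 UMIs of S100a8 and S100a9, so the B cells are no control here. With every cell thinned to 1000 UMIs and 2 UMIs required, the shares were 20.6% in NO2-OA, 4.53% and 3.73% in HFD + L-NAME, and 2.33% and 0% in chow. The granule-rich cells held 99.9% of all neutrophil Camp UMIs in NO2-OA, 100% and 99.9% in HFD + L-NAME, and 98.2% in chow 1. For Ltf the shares were 99.7%, 97.4% and 99%, and 83.9% in the same libraries. Their share among neutrophils was higher in NO2-OA, which is 1 library, than in any other library. The intervals of HFD + L-NAME 1, HFD + L-NAME 2 and chow 1 overlapped. All these intervals cover counting error within a library only.

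**Figure D3:**
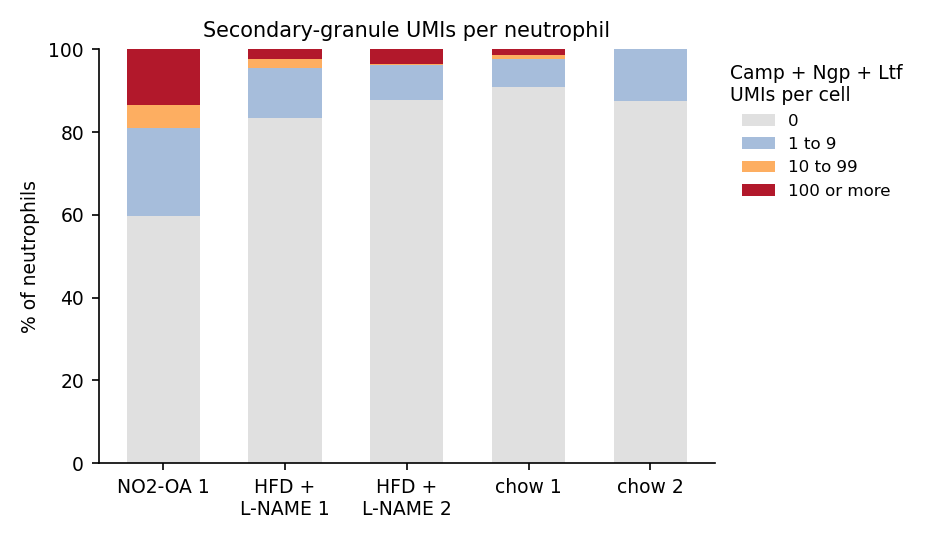
Neutrophils of each library by their summed UMIs of Camp, Ngp and Ltf, as a percentage of the library's neutrophils. Cells with 10 UMIs or more make up 19.1% in NO2-OA and at most 4.5% elsewhere.

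Granule-rich cells differed from the other neutrophils in the genes of maturation, given as levels with no test. In NO2-OA they had 9119 CPM of Lcn2, 1581 of Chil3, 1188 of Cybb (the catalytic subunit of the phagocyte oxidase) and 74.8 of Cebpe, against 1813, 10.7, 123 and 0.97 CPM in the other neutrophils of that library. Il1b, the inflammatory cytokine, had 145 CPM in granule-rich and 3041 CPM in other neutrophils of NO2-OA, and 249 and 150 against 4275 and 5440 CPM in HFD + L-NAME 1 and 2. Cxcl2, a neutrophil-attracting chemokine, had 1765 CPM in granule-rich and 9320 CPM in other neutrophils of NO2-OA, and 3590 and 7519 CPM in those of chow 1. The same genes were high and low in every library with granule-rich cells. Their median depth was above that of the other neutrophils, with 9416 against 4510.5 UMIs in NO2-OA and 16382 against 6184 in HFD + L-NAME 2. A doublet caller marked 27 of the 98 granule-rich cells in NO2-OA, 0 of 13 and 0 of 20 in HFD + L-NAME, and 1 of 7 in chow 1. Elane and Mpo were at most 1.94 CPM in them, and the proliferation marker Mki67 had 12.6 CPM in NO2-OA, 17.1 and 37.4 CPM in HFD + L-NAME and 89.2 CPM in chow 1.

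Levels without the granule-rich cells are given as a description, because the cells were set apart by the UMIs of Camp, Ngp and Ltf themselves. In a fit without them 37 genes were called higher (0.445%) and 54 lower (0.649%), and the 9 secondary granule genes tested had a median log2 fold change of 1.37. Lcn2 had 1813 CPM in NO2-OA, 1616 and 651 CPM in HFD + L-NAME, and 217 and 439 CPM in chow in those cells, with a log2 fold change of 2.41. Ltf had −0.71 and Chil3 −0.07, and Camp was too low to test. Wfdc21 had 2.26, Lrg1 2.62, Ifitm1 2.51 and G0s2 1.81. Over all neutrophils, Lcn2 was detected in 83.8% in NO2-OA, 81.7% and 63.7% in HFD + L-NAME, and 38% and 37.5% in chow. Camp was detected in 19.5% in NO2-OA, 3.11% and 5.1% in HFD + L-NAME, and 3.33% and 0% in chow.

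**Figure D4:**
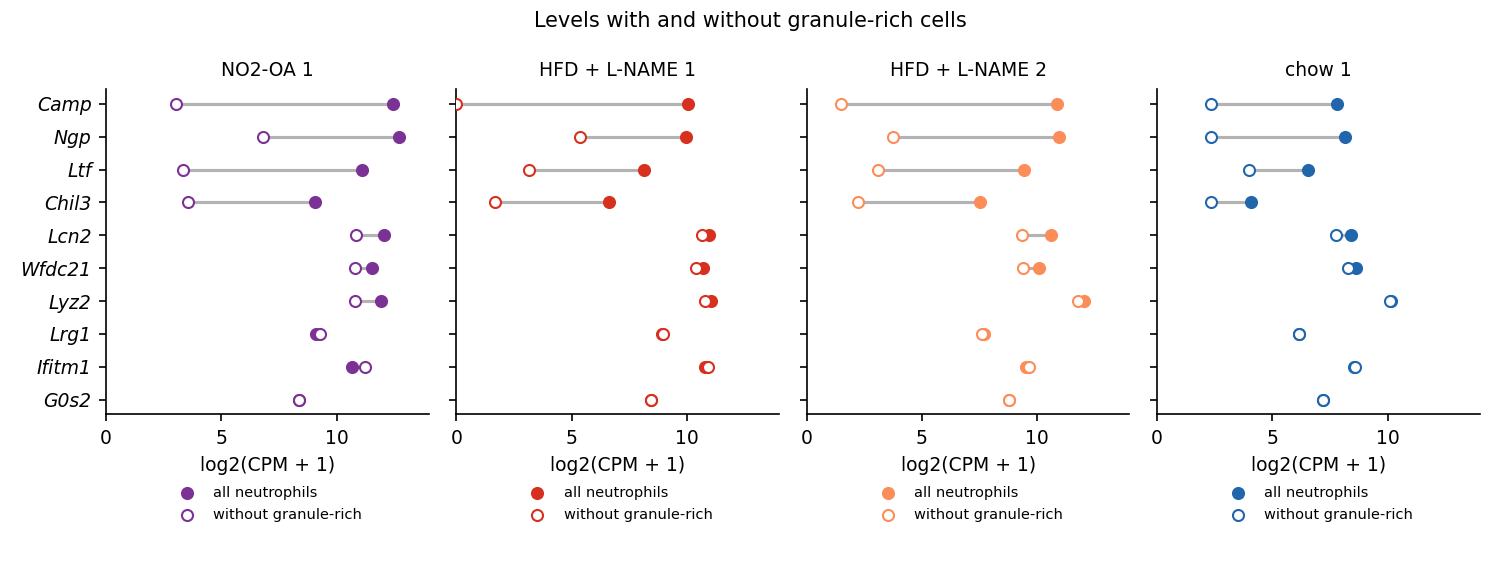
Level of 10 genes in all neutrophils (filled) and in neutrophils without the granule-rich cells (open), as log2(CPM + 1), in the 4 libraries that hold granule-rich cells. Camp, Ngp, Ltf and Chil3 are far lower without them, while Lrg1, Ifitm1 and G0s2 are close to their level in all neutrophils.

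Other groups of neutrophil genes moved less. Among 11 tested genes of tertiary granules and secretory vesicles 0 passed the test in either direction. All 11 were above 0 and the median was 0.89, or 0.54 without chow 1 against 0.96 over all tested genes. Mmp8, the neutrophil collagenase, had 999 CPM in NO2-OA, 481 and 376 CPM in HFD + L-NAME, and 313 and 230 CPM in chow (1.00 ± 0.45, adjusted p = 0.441). Mmp9, gelatinase B, had 816 CPM in NO2-OA, 627 and 683 CPM in HFD + L-NAME, and 433 and 543 CPM in chow (0.90 ± 0.45, adjusted p = 0.535). Of the NADPH oxidase genes 0 of 8 passed (median 0.62), and of the tested genes of extracellular traps 0 of 4 (median 0.65). Padi4, the histone-citrullinating enzyme, was among the latter at 1.00 ± 0.45 (adjusted p = 0.441). Without chow 1 the medians of these lists were 0.59 and 0.89, also below that over all tested genes.

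Genes of inflammation were expressed at high levels in every library. Of 14 interleukin-1 and inflammasome genes 0 passed and 13 were above 0, with a median of 0.54. Without chow 1 that median was 0.88, against 0.96 over all tested genes. Il1b had 2077 CPM in NO2-OA, 3965 and 4933 CPM in HFD + L-NAME, and 2633 and 4994 CPM in chow, so the groups overlapped. Nlrp3, the inflammasome sensor, had 792 CPM in NO2-OA, 1387 and 1510 CPM in HFD + L-NAME, and 1149 and 899 CPM in chow (0.91 ± 0.44, adjusted p = 0.511). Of 13 tested chemokines and chemoattractant receptors 0 passed (median 0.56, or 0.48 without chow 1). Cxcl2 had the smallest p of the list, with 6805 CPM in NO2-OA, 13361 and 11409 CPM in HFD + L-NAME, and 7401 and 5517 CPM in chow (1.38 ± 0.42, adjusted p = 0.064). Cxcl1, another neutrophil-attracting chemokine, which is not on the list and was chosen after its values were seen, had 7.44 CPM in NO2-OA, 18.5 and 73.9 CPM in HFD + L-NAME, and 7.34 and 0 CPM in chow. It rose (3.01 ± 0.65, adjusted p = 0.00083), on 11 UMIs in chow, and did not pass when any 1 of the HFD + L-NAME and chow libraries was left out, or without predicted doublets (1.69, adjusted p = 0.419). All 14 pattern receptors were above 0 and 0 passed (median 0.62, or 0.68 without chow 1). Clec4e, which senses microbial glycolipids and dead cells, had 1.32 ± 0.44 (adjusted p = 0.117). Of the 8 alarmins and calcium-binding genes Anxa1 rose (1.62 ± 0.46, adjusted p = 0.0356), with 1263 CPM in NO2-OA, 479 and 592 CPM in HFD + L-NAME, and 263 and 146 CPM in chow.

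Of 32 tested interferon-stimulated genes Ifitm1 rose and 20 were at or below 0, with a median of −0.25. The sign of that median depended on the setting: it was 2.43 without chow 1 (0.96 over all tested genes), 0.09 without HFD + L-NAME 2 and 0.32 with the stricter exclusion. Rsad2, an antiviral enzyme, had 57.9 CPM in NO2-OA, 75.3 and 66.7 CPM in HFD + L-NAME, and 201 and 62.7 CPM in chow (−0.89 ± 0.40, adjusted p = 0.438). Of 14 tested NRF2 target and ferritin genes Mt1 rose (2.57 ± 0.54, adjusted p = 0.000509), on 34.9 CPM in NO2-OA, 36.3 and 104 CPM in HFD + L-NAME, and 15.3 and 0 CPM in chow. Slc7a11 had 3972 CPM in NO2-OA, 5577 and 4678 CPM in HFD + L-NAME, and 4766 and 3427 CPM in chow (0.76 ± 0.42, adjusted p = 0.632). Glycolysis (0 of 16) and survival and death genes (0 of 14) had no call in either direction. Nor had NF-kappaB and STING (0 of 13) or maturity and ageing genes (0 of 12). Their medians were 0.53, 0.13, 0.22 and 0.47 in this order, or 0.8, 0.96, 0.9 and 0.69 without chow 1. Cxcr4, which brings aged neutrophils back to the marrow, had 404 CPM in NO2-OA, 703 and 817 CPM in HFD + L-NAME, and 914 and 1108 CPM in chow (0.06 ± 0.43, adjusted p = 0.99). Of the nitric oxide and arginine genes Nos2, Arg1 and Nos3 had at most 3.96 CPM in any library, and Arg2, the mitochondrial arginase, had 613 CPM in NO2-OA, 716 and 780 CPM in HFD + L-NAME, and 557 and 418 CPM in chow (0.99 ± 0.44, adjusted p = 0.439).

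**Figure D5:**
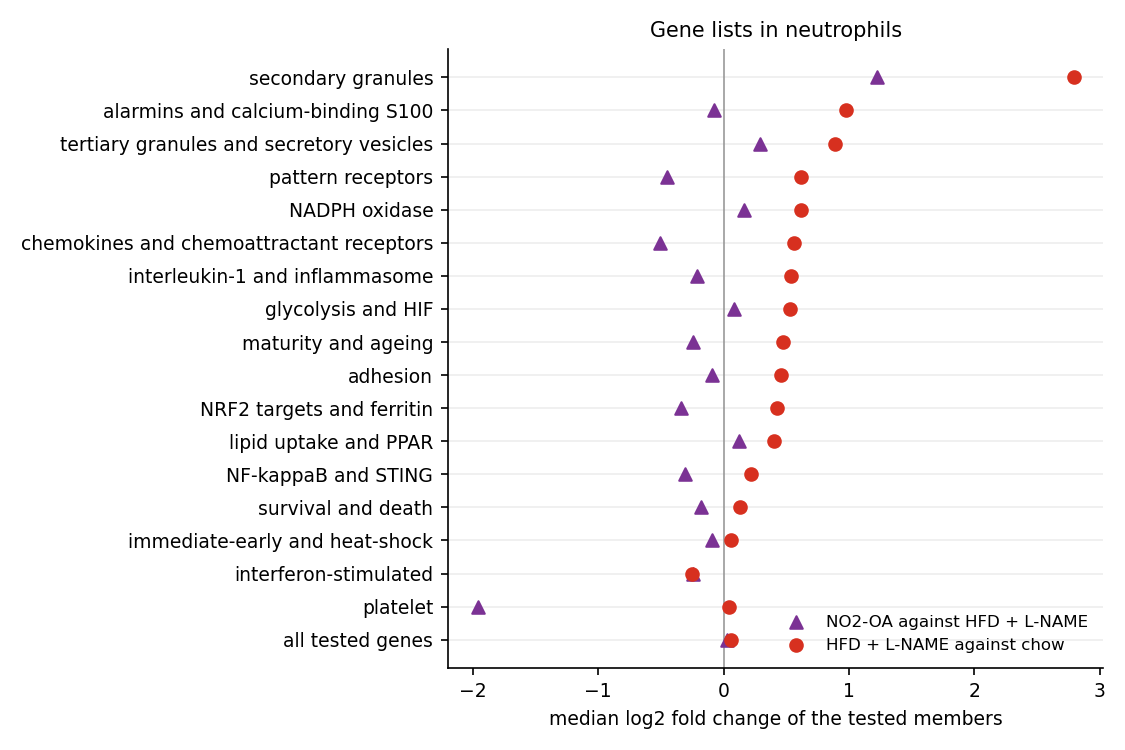
Median log2 fold change of the tested members of each gene list in neutrophils, for NO2-OA against HFD + L-NAME (triangles) and HFD + L-NAME against chow (circles), with all tested genes in the bottom row. Secondary granules lie at 1.22 and 2.79, and platelet genes at −1.96 and 0.04; both comparisons use the HFD + L-NAME libraries, so their values are not independent.

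The 63 genes that fell were of several kinds. Bcl2, an inhibitor of apoptosis, had 27.8 CPM in NO2-OA, 6.6 and 14.9 CPM in HFD + L-NAME, and 96.7 and 188 CPM in chow (−2.97 ± 0.48, adjusted p = 7.58e-07). Pparg, a lipid-sensing nuclear receptor, had 24.9 CPM in NO2-OA, 6.6 and 16.3 CPM in HFD + L-NAME, and 77.4 and 230 CPM in chow (−2.76 ± 0.50, adjusted p = 1.47e-05). It fell by 3.02 within replicate 1 and by 3.15 within replicate 2. Cd36, a fatty acid transporter, fell by 1.64 ± 0.42 (adjusted p = 0.0135), and these were the 2 of 14 tested lipid uptake and PPAR genes that passed. Cd83 (−2.53 ± 0.57, adjusted p = 0.00203), an activation marker of antigen-presenting cells, and Hpgd (−2.88 ± 0.68, adjusted p = 0.00434), which degrades prostaglandins, fell too. In chow 2 the 11 Pparg, 14 Cd36, 7 Cd83, 12 Hpgd and 9 Bcl2 UMIs each came from 1 of the 8 cells, and in chow 1 Pparg was detected in 5.33% of neutrophils. None of these 5 genes passed without HFD + L-NAME 1 or without HFD + L-NAME 2. Of the 8 non-classical monocyte markers, Pparg among them, 1 fell and 7 were below 0. The list summed to 508 CPM in NO2-OA, 950 and 943 CPM in HFD + L-NAME, and 968 and 1964 CPM in chow. In B cells of the same libraries it had 167 to 368 CPM. The number of genes that fell was 6 without chow 1, 14 without HFD + L-NAME 1 and 2 without HFD + L-NAME 2.

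T-cell genes were among those that fell, and went with cells of chow 1. Lef1, a transcription factor of naive T cells, fell (−3.03 ± 0.56, adjusted p = 4.04e-05), as did Trac (−3.73 ± 0.98, adjusted p = 0.0188), Themis and Bcl11b. The 8 T-cell markers summed to 42.7 CPM in NO2-OA, 13.9 and 21.8 CPM in HFD + L-NAME, and 113 and 0 CPM in chow, with Cd3e at 0 in each by the rule. The doublet caller marked 11.3% of neutrophils in NO2-OA, 5.54% and 5.49% in HFD + L-NAME, and 11.7% and 0% in chow. The share marked was preset by the number of barcodes in a library. Of all kept barcodes, 12623 of 14484 were left unmarked in NO2-OA, and 10696 of 11917 and 7165 of 7687 in HFD + L-NAME. In chow 14771 of 17255 and 9716 of 10685 were left unmarked. In each library a smaller share of neutrophils than of all kept barcodes was marked. Without the marked cells the T-cell markers had 19 CPM in chow 1, 28 genes rose (0.348%) and 12 fell (0.149%). Secondary granule genes then had 6 of 11 called higher and a median of 2.50, and Pparg (−2.41, adjusted p = 0.011), Cd83 (−2.99, adjusted p = 0.0104) and Hpgd (−4.78, adjusted p = 0.00013) still fell, whereas Bcl2 (−1.95, adjusted p = 0.187) and Cd36 (−0.89, adjusted p = 0.998) did not pass.

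Haemoglobin transcripts rose in HFD + L-NAME neutrophils, and were also found in B cells, where their source was not tested. Hba-a2 had 2892 CPM in NO2-OA, 2743 and 978 CPM in HFD + L-NAME, and 288 and 41.8 CPM in chow (3.56 ± 0.49, adjusted p = 2.32e-09). In B cells it had 2012 CPM in NO2-OA, 1166 and 1138 CPM in HFD + L-NAME, and 664 and 84.8 CPM in chow, the same order of groups. Hba-a1 and Hbb-bt rose as well, so that 3 of 7 tested erythroid markers passed, with all 7 above 0 and a median of 3.42. The 8 erythroid markers summed to 18693 CPM in NO2-OA, 17853 and 5650 CPM in HFD + L-NAME, and 1736 and 146 CPM in chow. Without predicted doublets the sum was 19124 CPM in NO2-OA, 4843 and 6164 CPM in HFD + L-NAME, and 166 and 146 CPM in chow. Hba-a2 then had a log2 fold change of 5.45. With all neutrophils kept, DESeq2 did not call Hba-a2. The part of erythroid transcripts in the other results was not tested. Hba-a2 was no longer past the threshold without chow 1, chow 2 or HFD + L-NAME 1. In chow 1 it had 8965 CPM in the 7 granule-rich cells and 20.6 CPM in the others. Among barcodes that also lacked further B-cell, T-cell, monocyte and platelet genes its direction turned (−5.12, adjusted p = 1.04e-05). That fit had 21 cells of chow 1 and 2 of chow 2.

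Secondary granule genes were among those that rose in NO2-OA neutrophils against HFD + L-NAME neutrophils, and platelet genes were among those that fell. In the same edgeR fit, which assumes that the lone NO2-OA library varies like the others, 17 genes rose (0.19%) and 15 fell (0.168%). DESeq2 called 0, with 54 genes at an unadjusted p under 0.05. T-cell genes were among those that rose, Themis (3.39 ± 0.82, adjusted p = 0.0241) and Bcl11b (6.58 ± 1.38, adjusted p = 0.00461), and the T-cell markers summed to 42.7 CPM in NO2-OA and to 13.9 and 21.8 CPM in HFD + L-NAME. Without predicted doublets the T-cell markers summed to 17.2 CPM in NO2-OA and to 15.5 and 23.4 CPM in HFD + L-NAME, so the groups overlapped. Of the 12 secondary granule genes 4 rose, 11 were above 0 and the median was 1.22, against 0.03 over all tested genes. They were Ltf (2.20 ± 0.50, adjusted p = 0.0127), Chil3 (1.94 ± 0.46, adjusted p = 0.0194), Ngp (2.18 ± 0.52, adjusted p = 0.0241) and Camp (1.93 ± 0.50, adjusted p = 0.0417), in 1 library against 2. Within replicate 1 the log2 differences were 2.87 for Ltf, 2.33 for Chil3, 2.62 for Ngp and 2.28 for Camp. Without HFD + L-NAME 1 or without HFD + L-NAME 2 none of the 4 passed. Without predicted doublets, where 1 gene rose (0.0124%), they had values of 1.32 to 1.68 and none passed. Without granule-rich cells, where 11 genes rose (0.132%) and 1 fell (0.012%), Camp was too low to test, and nothing is read from the other 3, since those cells were set apart by granule gene UMIs.

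Plscr1, a phospholipid scramblase, had 179 CPM in NO2-OA and 46.2 and 67.5 CPM in HFD + L-NAME (1.63 ± 0.43, adjusted p = 0.0417). Ly6a2, of the Ly6 family, had 254 CPM in NO2-OA and 72.6 and 73.3 CPM in HFD + L-NAME (1.78 ± 0.43, adjusted p = 0.0241), and Adpgk, an ADP-dependent glucokinase, 273 CPM in NO2-OA and 72.6 and 97.9 CPM in HFD + L-NAME (1.66 ± 0.44, adjusted p = 0.0428). All were higher in NO2-OA than in either HFD + L-NAME library, and none passed when either HFD + L-NAME library was left out. Cybb had 478 CPM in NO2-OA and 127 and 166 CPM in HFD + L-NAME (1.69 ± 0.47, adjusted p = 0.0597).

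Of the 15 genes that fell in NO2-OA neutrophils, 2 were among the 8 platelet markers. Nrgn, a calmodulin-binding protein abundant in platelets, had 127 CPM in NO2-OA and 510 and 636 CPM in HFD + L-NAME (−2.19 ± 0.58, adjusted p = 0.045). Gp9, of the von Willebrand factor receptor, had 28.8 CPM in NO2-OA and 91.8 and 139 CPM in HFD + L-NAME (−2.02 ± 0.50, adjusted p = 0.0293). Cd226, Clec1b (the podoplanin receptor), Tsc22d1, Rgs10 and Mmd fell too. Of 8 platelet markers 2 fell and all 8 were below 0, with a median of −1.96. The 8 markers summed to 459 CPM in NO2-OA and 1399 and 2132 CPM in HFD + L-NAME neutrophils, and to 82.8 CPM in NO2-OA and 918 and 483 CPM in HFD + L-NAME B cells. Platelet transcripts were detected in 34.2% of neutrophils in NO2-OA, and in 88.6% and 73.7% in HFD + L-NAME. The difference was thus present in another cell type of the same libraries. None of the 7 passed without HFD + L-NAME 1 or without HFD + L-NAME 2. Without predicted doublets 24 genes fell (0.298%), Gp9 (−2.65, adjusted p = 0.00331) and Nrgn (−2.85, adjusted p = 0.00493) among them.

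None of the members tested of the inflammatory and NRF2 lists passed between NO2-OA and HFD + L-NAME neutrophils, and most had log2 fold changes below 0. Of 14 pattern receptors 4 were above 0 (median −0.45), of 13 chemokines and receptors 4 (median −0.51), of 14 interleukin-1 and inflammasome genes 4 (median −0.21), of 13 NF-kappaB and STING genes 1 (median −0.31), and of 14 NRF2 targets, the genes that electrophiles are known to induce, 4 (median −0.34), each with 0 calls. The interleukin-1 median was 0.27 after thinning, and that of the pattern receptors was −0.13 without HFD + L-NAME 1. Cxcl1, outside the lists, fell (−2.65 ± 0.62, adjusted p = 0.0171), on 23 UMIs in NO2-OA and 28 and 268 in HFD + L-NAME, and did not pass when either HFD + L-NAME library was left out, or without predicted doublets (−1.71, adjusted p = 0.461). Il1b had a log2 fold change of −1.12 ± 0.54 (adjusted p = 0.822), Cxcl2 of −0.90 ± 0.52 (adjusted p = 1), and Ccrl2, a chemerin receptor, had 288 CPM in NO2-OA and 715 and 674 CPM in HFD + L-NAME (−1.30 ± 0.55, adjusted p = 0.612). Granule-rich cells, which had little Il1b and Cxcl2, were more frequent in NO2-OA. Without them Il1b was 3041 CPM in NO2-OA and 4275 and 5440 CPM in HFD + L-NAME (−0.74, adjusted p = 1).

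The regimen effect in neutrophils was set against that in classical monocytes (positive for Ccr2, Ly6c2 and Csf1r; 464 cells in NO2-OA, 238 and 88 in HFD + L-NAME, 236 and 238 in chow), since both are short-lived myeloid cells of the same blood. The difference of the effects passed for 12 of 11671 genes, with 4 above (0.0343%) and 8 below (0.0685%). Those above were haemoglobin genes, of which Hbb-bt had 3.94 ± 0.64 (edgeR adjusted p = 5.52e-06). Hbb-bt had 2471 and 627 CPM in HFD + L-NAME neutrophils and 185 and 0 CPM in chow neutrophils, and 582 and 785 CPM in HFD + L-NAME monocytes and 1306 and 2.15 CPM in chow monocytes. Slc8a1, a sodium-calcium exchanger, had −3.02 ± 0.49 (adjusted p = 5.52e-06). It had 66.7 and 22.1 CPM in HFD + L-NAME and 141 and 1191 CPM in chow neutrophils, where the 57 UMIs of chow 2 came from 2 cells. DESeq2 called 0 genes, with 234 at an unadjusted p under 0.05. Camp, Ngp and Ltf had at most 1.26 CPM in monocytes, too little to compare their effects between the cell types. Without chow 1 or without chow 2, and without predicted doublets, 0 genes were above.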

How the data were processed

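The authors deposited for each of 5 libraries a matrix of raw UMI counts, genes by barcodes, made with Cell Ranger 7.1.0 per the file headers. The submitters' processing notes name bcl2fastq and mm39. Neutrophils were chosen from the counts as stated above, and library totals ranged from 71216133 to 122022000 UMIs. The members and gene lists were chosen with earlier results of these data known. Counts were summed per library and genes with at least 10 UMIs in at least 2 libraries were fitted with edgeR 4.0.16 (R 4.3.3, quasi-likelihood, TMM, 1 spread shared by all 5 libraries). P-values were adjusted by Benjamini-Hochberg over all tested genes. The 10 genes of the rule had no test. DESeq2 1.42.0 was an alternative. Named genes were up to 10 in each direction by smallest p with a mean of at least 50 CPM and groups that did not overlap, called members of each list, and the most abundant members. Other genes named for their values, among them Cebpe, Ccrl2, Hpgd and the T-cell genes, were in part chosen after their values were seen. Doublets were marked by Scrublet in scanpy 1.11.5 (0.8% per 1000 barcodes), kept, and left out in an alternative. The fitting step was tested on simulated counts. Other alternatives were the thresholds of the rule, low-count filters, thinning, a replicate block, and each library left out. Leaving out granule-rich cells was added after seeing the data.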

Additional observations from a re-analysis of the deposited data

Results flagged for a closer look

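The difference between the regimen effect in neutrophils and that in classical monocytes passed the edgeR quasi-likelihood test for 6 genes of the naming rule. Haemoglobin genes had a larger effect in neutrophils: Hbb-bt by 3.94 ± 0.64 (log2, SE, adjusted p = 5.52e-06), Hbb-bs by 3.66 ± 0.68 (adjusted p = 0.000196), Hba-a2 by 3.23 ± 0.66 (adjusted p = 0.00263) and Hba-a1 by 2.98 ± 0.64 (adjusted p = 0.00565). Slc8a1 had a difference of −3.02 ± 0.49 (adjusted p = 5.52e-06), and Hivep2, a zinc finger factor, one of −2.50 ± 0.58 (adjusted p = 0.0228). Hivep2 had 13.9 and 22.3 CPM in HFD + L-NAME neutrophils and 61.4 and 125 CPM in chow neutrophils, and 65.5 and 98 CPM in HFD + L-NAME monocytes and 44.1 and 50.9 CPM in chow monocytes. None of the 6 passed without chow 1 or without chow 2.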

How the results depend on the processing

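The neutrophil share kept its direction under every alternative, with differences of 1.52 to 5.73 percentage points when 1 library was left out. For HFD + L-NAME against chow, where 47 genes were higher and 63 lower, 28 were higher and 12 lower without predicted doublets, 0 and 3 with the stricter exclusion genes, 0 and 0 after thinning, and 4 and 3 with DESeq2. With 1 library left out, 11 to 48 were higher and 2 to 43 lower. For NO2-OA against HFD + L-NAME, where 17 were higher and 15 lower, 1 was higher and 24 lower without doublets, 3 and 0 with the stricter exclusion, 6 and 7 after thinning, 11 and 1 without granule-rich cells, and 0 and 0 with DESeq2. Without a filter on low counts 10 were higher and 12 lower, and with 1 library left out 0 to 20 were higher and 0 to 29 lower. For the difference from monocytes, 4 higher and 8 lower became 0 and 2 without doublets, 0 and 0 with the stricter exclusion, after thinning and with DESeq2, and 5 were lower when S100a8 and S100a9 had to reach 50 UMIs. With 1 library left out 0 to 5 were higher and 0 to 13 lower. Under the replicate block 22 genes were higher and 5 lower with the regimen, and 0 and 0 with NO2-OA, so that none of the 32 NO2-OA calls was kept. The deviations of same-numbered libraries from their group means had a correlation of −0.0323 over 8954 genes. Those of chow rest on the 8 neutrophils of chow 2, so this value cannot show whether the replicate numbers pair samples. The direction turned with the stricter exclusion for Hba-a2 (−5.12), Hba-a1 (−5.21) and Hbb-bt (−5.05) under the regimen, and in the difference from monocytes for Hbb-bt (−10.66), Hbb-bs (−7.68), Hba-a2 (−9.82), Hba-a1 (−7.72), Tbc1d9 (5.84) and Cd83 (5.40). It turned without granule-rich cells for Chil3 (−0.07) and Ltf (−0.71). Nothing is read from that, since those cells were set apart by Camp, Ngp and Ltf UMIs and held most UMIs of Chil3. The direction also turned without doublets for Hbb-bt in the difference (−0.09), and without chow 1 for Hba-a2 in the difference (−1.63, in a range to 4.32 with 1 library left out). The cause of the other turns was not tested. The interleukin-1 median for NO2-OA against HFD + L-NAME (−0.21) was 0.27 after thinning. The 8 neutrophils of chow 2 limit every comparison with chow.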

Other observations

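Granule-rich neutrophils as a share of all kept barcodes were 0.677% in NO2-OA, 0.109% and 0.26% in HFD + L-NAME 1 and 2, and 0.0406% and 0% in chow 1 and 2. The other neutrophils were 2.86% in NO2-OA, 2.32% and 6.37% in HFD + L-NAME, and 1.7% and 0.0749% in chow. The median granule-rich cell had 2365.5 UMIs of S100a8 and S100a9 in NO2-OA, 2189 and 4167.5 in HFD + L-NAME, and 1247 in chow 1, against 388.5, 431 and 423.5, and 154 in the other neutrophils of the same libraries.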
